A study of Homo sapiens with 30 samples.

Results

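The 9 genes described here are noncoding RNAs that work in the nucleus or as the RNA core of a small particle. They are the long nuclear RNAs MALAT1, NEAT1, KCNQ1OT1 and TUG1 and the small structural RNAs RN7SL1, RN7SL2, RN7SK, RMRP and RPPH1. They were chosen by name out of the 60675 gene rows of the count table, after earlier results of the same data had shown several of them lower in extract-treated than in vehicle-treated libraries. All 9 were among the 16083 genes that passed the count filter, RMRP only through its counts in vehicle. Because the extract against vehicle contrast chose them, it is described below without a test.

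HepG2 is a human hepatocellular carcinoma cell line. The cells were treated for 24 h with the 70% ethanol extract of a Korean tonic formula, and RNA sequencing of 30 libraries gave 13 groups. Samul-tang had 2 libraries at each dose, Sagunja-tang 1 library at each dose, and Palmul-tang and Sibjeondaebo-tang 3 libraries at each dose. The Samul-tang and Sagunja-tang recipes together make up Palmul-tang, to which astragalus root and cinnamon bark are added for Sibjeondaebo-tang. The labels give the low, medium and high doses as 20, 100 and 500 µg/mL, although the series' design text says that more toxic extracts were given at lower, extract-specific doses. The reference was 3 libraries of cells given 0.1% DMSO by their labels, while the design text states another DMSO concentration. All groups are of the same unmodified cell line, and nothing in the labels says that replicates came from separate cultures, so p-values measure the spread between these libraries, which may be technical. RNA was taken as total RNA and made into mRNA libraries with a strand-preserving kit.

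The libraries held between 21570416 and 37707232 expected counts. Markers of HepG2 and hepatocytes were abundant in all of them, with ALB at 8392 to 12005 CPM (counts scaled to the library total) and AFP at 13155 to 17542 CPM. The leukocyte markers PTPRC and CD3E stayed at or under 0.0298 and 0.0364 CPM. Of the other blood and endothelial markers, CD68 was at 48.7 to 82.0 CPM. PECAM1 was at 1.33 to 2.35 CPM and VWF at 0.379 to 0.881 CPM. Fibroblast markers summed to at most 0.615 CPM except in Sibjeondaebo-tang low replicate 3, where they summed to 21.7 CPM, with COL1A1 at 8.29 CPM. All libraries carry the same batch letter in their labels. By the prefixes of the data columns, whose meaning is not stated, there are 3 library sets: vehicle alone, Samul-tang with Sagunja-tang, and Palmul-tang with Sibjeondaebo-tang. Set and treatment therefore cannot be told apart for any extract against vehicle, while the dose and formula comparisons tested below lie within a set.

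As background, MALAT1 is a very abundant RNA of nuclear speckles, and NEAT1 is the RNA scaffold of paraspeckles, nuclear bodies built on its long form. KCNQ1OT1 silences neighbouring imprinted genes on the chromosome that transcribes it, and TUG1 has been linked to gene repression and is also found in the cytoplasm. The small members are made by RNA polymerase III: RN7SL1 and RN7SL2 encode the RNA of the signal recognition particle, which brings secreted proteins to the endoplasmic reticulum, RN7SK holds the elongation kinase P-TEFb in an inactive particle, and RMRP and RPPH1 are the RNAs of the ribonucleases MRP and P, which process ribosomal and transfer RNA precursors. The mature small RNAs carry no long poly(A) tail, and MALAT1 and the long form of NEAT1 end in a short genomically encoded A-rich tract in place of one.

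The genes lie, in GRCh38 coordinates of the GENCODE 29 annotation, as follows. NEAT1 (ENSG00000245532, chr11:65422774-65445540) and MALAT1 (ENSG00000251562, chr11:65497688-65506516) are plus-strand lincRNA genes on the same chromosome arm. KCNQ1OT1 (chr11:2608328-2699994) is transcribed from the minus strand, antisense to the gene KCNQ1. TUG1 is on the plus strand at chr22:30969245-30979395. RN7SL1 (chr14:49586580-49586878, plus strand) and RN7SL2 (chr14:49862550-49862849, minus strand) are separate genes. RN7SK (ENSG00000202198) is at chr6:52995620-52995950 on the plus strand, RMRP (ENSG00000277027) at chr9:35657754-35658017 on the minus strand, and RPPH1 at chr14:20343075-20343407 on the minus strand. A second row overlapping RMRP had a count of 0 in every library and was not used.

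RN7SL1 and RN7SL2 are near-identical copies, so reads that match both had to be divided between the genes by the counting program. The separate values of RN7SL1 and RN7SL2 are uncertain for that reason, and their sum is given beside them.

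The 3′ end of the long NEAT1 transcript is printed because it shows how an RNA without an ordinary poly(A) tail ends. The last 100 bases of the annotated 22743-base transcript (chr11:65445441-65445540, plus strand) carry runs of 4 or more T or A, in capitals.
NEAT1: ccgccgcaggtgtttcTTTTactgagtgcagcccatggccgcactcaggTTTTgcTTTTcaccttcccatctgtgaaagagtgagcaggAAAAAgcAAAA
There were 3 such runs of T and 2 of A, and the last run of A closed the transcript. T-rich runs and an A-rich end of this kind are known to form the triple helix that protects the RNA. Counts were given per gene, so the long form and the shorter polyadenylated form of NEAT1 could not be told apart.

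Among the long RNAs, NEAT1 fell the most with the high dose of Sibjeondaebo-tang. It stood at 143, 137 and 122 CPM in the high-dose libraries, against 267, 274 and 267 CPM in the low-dose libraries. The groups did not overlap, and the log2 fold change was −1.01 ± 0.05 (SE; edgeR quasi-likelihood test with Benjamini-Hochberg adjustment, adjusted p = 4.95e-15). In that comparison 19.8% of all tested genes passed the same threshold of 0.05, so passing it was common. NEAT1 ranked 3 among the 16083 genes ordered by p, and 143 called genes, NEAT1 included, had a fold change as low or lower. At the medium dose of Sibjeondaebo-tang it was 234, 240 and 223 CPM, between the other doses and apart from both. The comparisons with the medium dose were added after the values had been seen. High against medium gave −0.79 ± 0.05 (adjusted p = 2.93e-12 in edgeR; 11.1% of genes called), and medium against low gave −0.21 ± 0.05, which did not pass (adjusted p = 0.105 in edgeR; 0.112% called).

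NEAT1 did not show that drop in the other formulas. Palmul-tang high had 249, 247 and 247 CPM, against 263, 297 and 255 CPM at the low dose, a log2 difference of −0.13 ± 0.05 (adjusted p = 0.125 in edgeR). Samul-tang high had 258 and 257 CPM, against 299 and 292 CPM at the low dose, a log2 difference of −0.20 ± 0.06 (adjusted p = 0.135 in edgeR). In both cases the high-dose libraries lay below all low-dose libraries, but neither test passed. How many of all genes were separated in this way was not counted. Ordered by p, NEAT1 ranked 1780 in Palmul-tang and 384 in Samul-tang among the 16083 genes. The 3 Sagunja-tang libraries, without replicates, had 283, 277 and 303 CPM at the low, medium and high dose. Set directly against each other, Sibjeondaebo-tang high was lower in NEAT1 than Palmul-tang high by a log2 fold change of −0.89 ± 0.05 (adjusted p = 2.85e-13 in edgeR; 6.47% of genes called). The dose effects of Sibjeondaebo-tang and Palmul-tang on NEAT1 differed by −0.87 ± 0.07 on the log2 scale (adjusted p = 3.03e-09 in edgeR). Of the 9 members only NEAT1 passed that test, which called 2% of all genes, 314 lower and 8 higher.

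**Figure D1:**
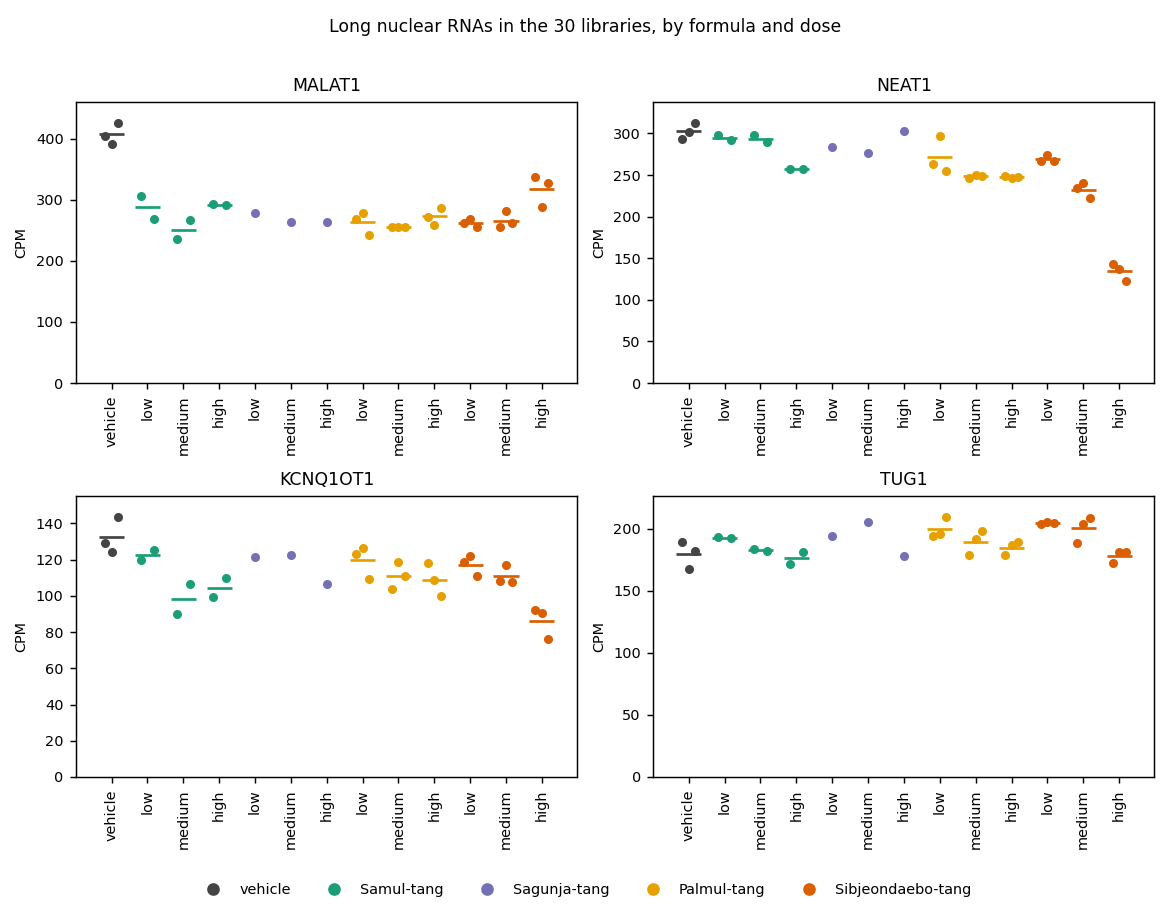
CPM of MALAT1, NEAT1, KCNQ1OT1 and TUG1 (y axes, from 0) in each of the 30 libraries, by formula (colour) and dose (x axis, low to high after vehicle); points are libraries and bars the means of groups with 2 or 3 libraries. NEAT1 was 122 to 143 CPM in the 3 Sibjeondaebo-tang high libraries, below all the others, and MALAT1 was 391 to 426 CPM in the 3 vehicle libraries, above all the others.

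KCNQ1OT1 fell less. It was at 92.2, 90.4 and 76.1 CPM in Sibjeondaebo-tang high, against 118, 122 and 111 CPM in Sibjeondaebo-tang low. The log2 fold change was −0.44 ± 0.08 (adjusted p = 0.000385 in edgeR), and against the 118, 109 and 99.9 CPM of Palmul-tang high it was −0.34 ± 0.08 (adjusted p = 0.0116 in edgeR). The second call rested on single libraries: without Palmul-tang high replicate 1 the adjusted p was 0.0808, and without Sibjeondaebo-tang high replicate 3 it was 0.0982. The same direction was seen in Palmul-tang and Samul-tang, at −0.13 ± 0.08 and −0.23 ± 0.10 for high against low, without passing (adjusted p = 0.413 and 0.399 in edgeR). KCNQ1, the gene on the other strand, had at most 0.0604 CPM in any library, so few counts were assigned to it. Whether the counting used strand is unknown here, so reads of the 2 strands may not have been told apart.

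TUG1 fell by less still. Sibjeondaebo-tang high had 172, 181 and 181 CPM, against 204, 206 and 205 CPM at the low dose. The groups did not overlap, and the log2 fold change of −0.20 ± 0.05 passed (adjusted p = 0.00352 in edgeR). Against Palmul-tang high, at 179, 187 and 189 CPM, the difference was −0.05 ± 0.05 (adjusted p = 0.603 in edgeR) and the groups overlapped. TUG1 was lower at the high than at the low dose in Palmul-tang (−0.11 ± 0.05) and Samul-tang (−0.13 ± 0.06) too, though neither passed (adjusted p = 0.192 and 0.442 in edgeR).

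MALAT1 moved the other way. It was at 337, 288 and 327 CPM in Sibjeondaebo-tang high, against 261, 268 and 255 CPM in Sibjeondaebo-tang low. It rose, with a log2 fold change of 0.28 ± 0.06 (adjusted p = 0.00118 in edgeR). Against Palmul-tang high, at 271, 259 and 287 CPM, the log2 fold change was 0.22 ± 0.06 (adjusted p = 0.0237 in edgeR). The groups did not overlap, but this call ended without any 1 of 4 libraries: Sibjeondaebo-tang high replicate 1 (adjusted p = 0.127) or 3 (0.129), or Palmul-tang high replicate 1 (0.0765) or 2 (0.136). It also ended when mitochondrially encoded genes were left out of the library totals (adjusted p = 0.0515). The difference between the dose effects of Sibjeondaebo-tang and Palmul-tang on MALAT1, 0.23 ± 0.09, did not pass (adjusted p = 0.246 in edgeR).

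In total 4 of the 9 members passed in Sibjeondaebo-tang high against low, where 19.8% of all genes did (MALAT1 higher; NEAT1, KCNQ1OT1 and TUG1 lower). Between the high doses of Sibjeondaebo-tang and Palmul-tang 3 of 9 passed, where 6.47% of all genes did (MALAT1 higher; NEAT1 and KCNQ1OT1 lower). The same 4 genes passed in the added comparison of high against medium (11.1% of all genes), where TUG1 (−0.17 ± 0.05, adjusted p = 0.0228 in edgeR) lost its call without Sibjeondaebo-tang high replicate 1 (adjusted p = 0.103) or medium replicate 2 (0.0936) or 3 (0.128). No member passed in Palmul-tang high against low (6.78% of genes called) or in Samul-tang high against low (1.42%). This held with edgeR after the count filter and with DESeq2. In these comparisons 2 and 3 members had an unadjusted p under 0.05 in edgeR, as did 2975 and 1600 of the 16083 genes tested. With no filter on low counts edgeR called 2 members, RN7SL1 and RN7SL2, in Palmul-tang high against low. At the medium dose, Sibjeondaebo-tang against Palmul-tang gave 0 members by either tool, 0 at an unadjusted p under 0.05, and 0.0311% of all genes. At the low dose the same comparison gave 0 members and 0% of all genes by either tool, with 0 members and 338 genes at an unadjusted p under 0.05 in edgeR.

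The share of counts from mitochondrially encoded genes was 17.2% to 19.4% in Sibjeondaebo-tang high, 15.7% to 19.7% in Sibjeondaebo-tang medium, 15.7% to 17.04% in Sibjeondaebo-tang low, 14.9% to 16.9% in Palmul-tang high and 12.4% to 14.5% in vehicle. With these genes out of the totals, NEAT1, KCNQ1OT1, TUG1 and MALAT1 gave −1.03, −0.47, −0.23 and 0.25 in Sibjeondaebo-tang high against low, all still called. Without Sibjeondaebo-tang low replicate 3, the library with fibroblast markers, they gave −1.01, −0.48, −0.20 and 0.26, all still called. The scaling also mattered for the genes as a whole: 282 genes were higher and 759 lower when Sibjeondaebo-tang high was set against Palmul-tang high, and 148 and 839 with median-ratio factors. In Sibjeondaebo-tang high against low, 1673 genes were higher and 1518 lower, and 1170 and 1720 with totals that left out mitochondrially encoded genes. For high against medium these counts were 810 higher and 976 lower, and 564 and 1102 with median-ratio factors. For the difference between the dose effects of Sibjeondaebo-tang and Palmul-tang they were 8 higher and 314 lower, and 6 and 360 with median-ratio factors.

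**Figure D2:**
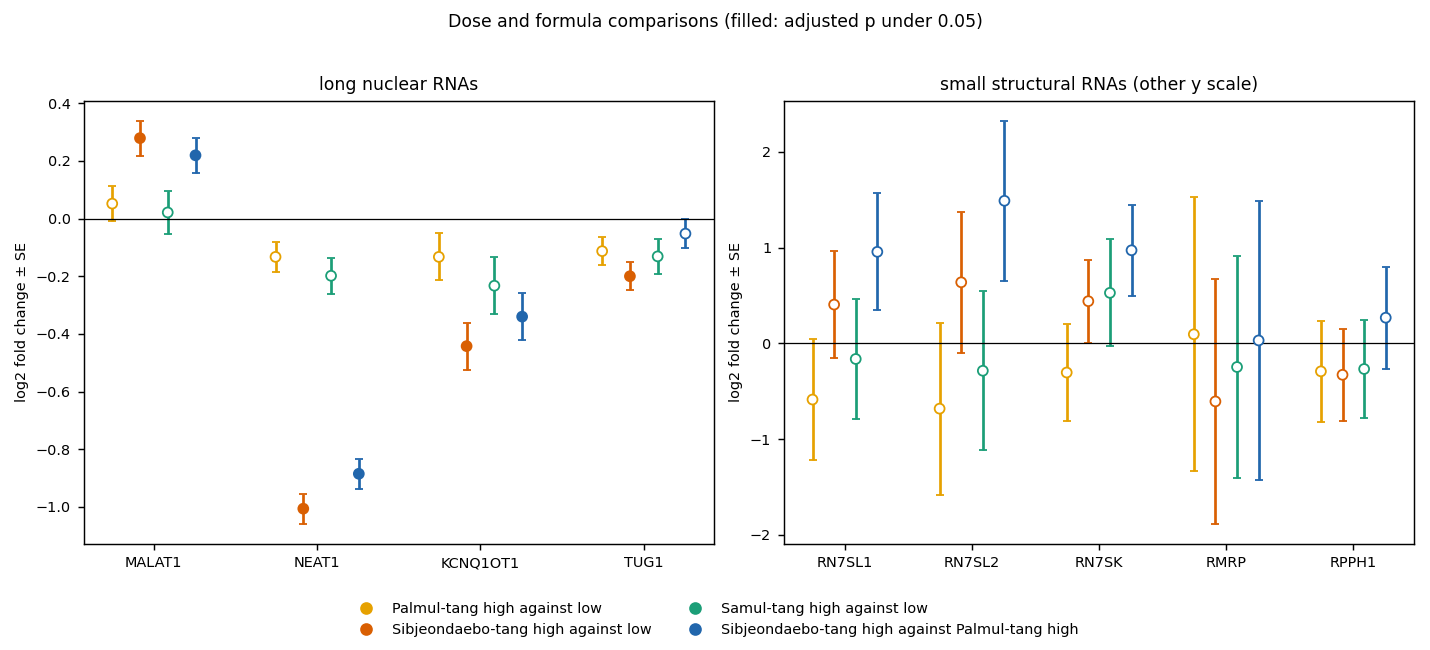
Log2 fold changes with their standard errors (y axes, on different scales) of the 9 members (x axes) in 4 dose and formula comparisons (colours); filled points had an adjusted p under 0.05. Among the long RNAs, NEAT1 reached −1.01 in Sibjeondaebo-tang high against low, and none of the small RNAs, whose standard errors ran from 0.43 to 1.45, is filled.

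Against vehicle, MALAT1 was lower in every extract group. The 27 extract libraries ranged over 235 to 337 CPM with a median of 268 CPM, against 404, 391 and 426 CPM in vehicle. The mean over extract libraries lay below that of vehicle by 0.58 on the log2 scale (a log2 ratio of −0.58), and the order of the 13 group means ran from vehicle (407 CPM) over Sibjeondaebo-tang high (317 CPM) to Samul-tang medium (251 CPM). Vehicle was the only group whose libraries lay wholly above those of the next group in that order. In bulk RNA, fewer cells carrying an RNA and less of it per cell cannot be told apart. The extract libraries of the Samul-tang and Sagunja-tang set (235 to 306 CPM) and of the Palmul-tang and Sibjeondaebo-tang set (243 to 337 CPM) both lay below vehicle.

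The means of the other long RNAs over all extract libraries were closer to vehicle, although in Sibjeondaebo-tang high NEAT1 and KCNQ1OT1 lay farther below vehicle than MALAT1 did. NEAT1 was at 122 to 303 CPM in extract libraries, with a median of 257 CPM, against 294, 301 and 313 CPM in vehicle, and 23 of the 27 extract libraries lay below the vehicle range. Its group means ran from 303 CPM in Sagunja-tang high and 303 CPM in vehicle to 232 CPM in Sibjeondaebo-tang medium and 134 CPM in Sibjeondaebo-tang high, the last of these apart from its neighbour. KCNQ1OT1 was at 76.1 to 127 CPM in extract libraries and 124 to 144 CPM in vehicle, with 25 of 27 extract libraries below the vehicle range. TUG1 was at 171 to 210 CPM in extract libraries and 168 to 189 CPM in vehicle, so that no extract library lay below it. The log2 ratio of extract to vehicle means was −0.27 for NEAT1, −0.27 for KCNQ1OT1 and 0.09 for TUG1, beside a median of −0.0048 over all tested genes.

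The small RNAs were the lowest relative to vehicle. RN7SL1 was at 1.85 to 11.2 CPM in the extract libraries, with a median of 3.89 CPM, against 11.9, 18.03 and 12.1 CPM in vehicle. RN7SL2 was at 1.43 to 16.4 CPM in the extract libraries, with a median of 3.97 CPM, against 16.6, 31.0 and 21.6 CPM in vehicle. Neither RNA had an extract library inside its vehicle range, and the log2 ratios of the means were −1.64 and −2.12. Their sum was 3.64 to 27.6 CPM in extract libraries and 28.5 to 49.0 CPM in vehicle, so the sum, which does not depend on how reads shared by these 2 genes were divided, also kept all extract libraries below vehicle.

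The gap to vehicle was narrowest in 4 extract libraries. The sum of RN7SL1 and RN7SL2 was 27.6 CPM in Samul-tang low replicate 2, 24.9 CPM in Sibjeondaebo-tang high replicate 3, 22.2 CPM in Sagunja-tang low replicate 3 and 21.7 CPM in Samul-tang high replicate 2. Sagunja-tang low has no second library. The partners of the others were lower, at 5.73 CPM in Samul-tang low replicate 3, 8.40 and 5.71 CPM in the other Sibjeondaebo-tang high libraries, and 5.43 CPM in Samul-tang high replicate 3. The remaining extract libraries had 3.64 to 12.9 CPM. No planned comparison called either RNA: Sibjeondaebo-tang high against low gave 0.41 ± 0.56 for RN7SL1 and 0.64 ± 0.74 for RN7SL2 (adjusted p = 0.675 and 0.605 in edgeR), and Palmul-tang high against low gave −0.59 ± 0.63 and −0.68 ± 0.90 (adjusted p = 0.706 and 0.777). Summed into 1 feature, they gave 0.54 ± 0.65 and −0.64 ± 0.75 (adjusted p = 0.625 and 0.74). Without Sibjeondaebo-tang high replicate 3, the first RN7SL1 value turned to −0.27 ± 0.63 (adjusted p = 0.833). These calls depend on the count filter: with no filter on low counts edgeR called RN7SL2 in Sibjeondaebo-tang high against low (log2 0.60, adjusted p = 8.66e-07) and in Palmul-tang high against low (log2 −0.69, adjusted p = 1.89e-05), and RN7SL1 in both (adjusted p = 0.0235 and 0.000711).

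**Figure D3:**
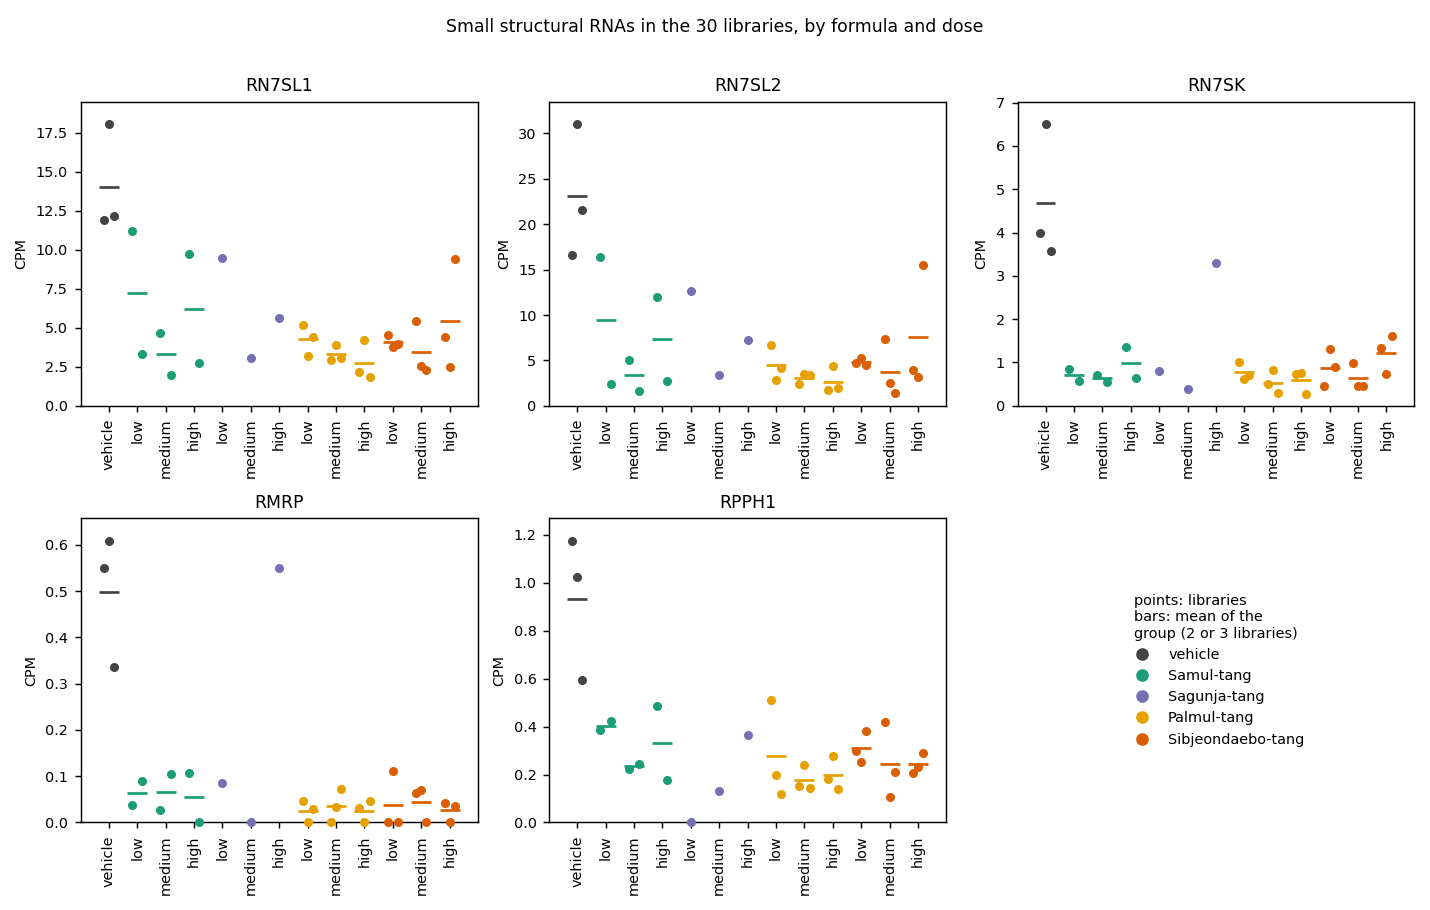
CPM of RN7SL1, RN7SL2, RN7SK, RMRP and RPPH1 (y axes, from 0) in each of the 30 libraries, by formula (colour) and dose (x axis, low to high after vehicle); points are libraries and bars the means of groups with 2 or 3 libraries. Vehicle libraries are the highest in each panel except RMRP, where Sagunja-tang high (0.55 CPM) lies within the vehicle values of 0.335 to 0.609 CPM.

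RN7SK was at 0.277 to 3.30 CPM in extract libraries, with a median of 0.724 CPM, against 4.00, 6.50 and 3.58 CPM in vehicle. It rested on 6 to 90 counts per extract library and 96 to 235 counts per vehicle library. The highest extract value, 3.30 CPM, was in the Sagunja-tang high library, and the next was 1.60 CPM in Sibjeondaebo-tang high replicate 3. Sibjeondaebo-tang high, with 1.32, 0.731 and 1.60 CPM, stood above Palmul-tang high, with 0.724, 0.758 and 0.277 CPM, by a log2 fold change of 0.97 ± 0.48, but the groups overlapped and the test did not pass (adjusted p = 0.261 in edgeR), whereas with no filter on low counts it did (adjusted p = 0.0114).

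RPPH1 was at 0 to 0.512 CPM in extract libraries, with a median of 0.233 CPM, against 1.17, 1.02 and 0.596 CPM in vehicle, on at most 17.5 counts per extract library and 16.4 to 37 counts per vehicle library. The library with 0 counts was Sagunja-tang low; a count of 0 allows up to 3 counts, which is 0.0809 to 0.139 CPM over the 30 libraries. RMRP had 4 counts or fewer and at most 0.112 CPM in 26 of the 27 extract libraries, of which 9 had 0 counts, against 15, 22 and 9 counts (0.551, 0.609 and 0.335 CPM) in vehicle. The exception was Sagunja-tang high, the single library of its group, with 15 counts and 0.55 CPM, the same library that was highest in RN7SK. RMRP and RPPH1 passed the count filter. RMRP did so only through vehicle, since the extract libraries in the fit had 4 counts or fewer against a minimum of 10. Standard errors were 1.11 to 1.97 for RMRP and 0.47 to 0.72 for RPPH1 on the log2 scale. Only large differences between extract groups could therefore have been seen, and none was called.

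In all, 5 members (MALAT1, RN7SL1, RN7SL2, RN7SK and RPPH1) had every extract library below every vehicle library. The same was true of 800 of the tested genes (4.97%); the members were selected on this contrast, so nothing is read from the count. Leaving out the 4 libraries with high signal recognition particle RNA and the Sagunja-tang high library, a choice made after the values were seen, gave log2 ratios of −2.02 for RN7SL1, −2.68 for RN7SL2, −2.76 for RN7SK, −1.96 for RPPH1 and −0.60 for MALAT1. These libraries held the highest extract values of RN7SL1, RN7SL2 and RN7SK, so lower ratios for these RNAs were fixed by the choice. Per kilobase of exon, the vehicle means were 76.9 CPM for RN7SL2, 46.9 for RN7SL1, 46.1 for MALAT1, 17.7 for TUG1, 14.2 for RN7SK, 13.3 for NEAT1, 2.80 for RPPH1, 1.89 for RMRP and 1.45 for KCNQ1OT1. These levels describe what the mRNA library held, not how abundant an RNA without a poly(A) tail was in the cell.

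For other RNAs listed as lacking a poly(A) tail the values were mixed. Whether the histone transcripts counted here lacked a tail was not tested. Of 25 other small structural RNAs found in the table, such as spliceosomal, Y, vault and box C/D RNAs, 2 passed the count filter. SNORD3A, the RNA of the U3 particle, had a median of 1.53 CPM and at most 2.58 CPM in extract libraries and 1.34 to 2.06 CPM in vehicle. SNORD17 had a median of 0.331 CPM and at most 0.674 CPM in extract libraries and 0 to 0.373 CPM in vehicle (log2 ratio of the means 0.92, ranges overlapping). The summed level of the whole list was 1.67 to 3.38 CPM in extract libraries and 2.09 to 2.57 CPM in vehicle. RNU2-2P, RNU4-2, RNY3, RNY4 and VTRNA1-1 had 0 counts in every library. Of the 10 replication-dependent histone genes, H1-4 was at 0.0465 to 0.306 CPM in extract libraries and 0.581 to 0.783 CPM in vehicle. H4C3, which did not pass the count filter, was at 0 to 0.175 CPM and 0.257 to 0.36 CPM. H1-4 and H4C3 are named for lying wholly below vehicle, while the ranges of the other histone genes overlapped it. H4C8, H2BC4, H2AC6 and H2BC21, with the smallest adjusted p of the list, had log2 ratios of extract to vehicle means of 0.09, −0.13, −0.06 and −0.04. The summed list was at 22.8 to 32.8 CPM in extract libraries and 26.9 to 31.2 CPM in vehicle. Sagunja-tang high, the highest extract library in RN7SK and RMRP, had the lowest histone sum, at 22.8 CPM. Sagunja-tang medium had a histone sum of 23.3 CPM with RN7SK at 0.398 CPM and RMRP at 0 CPM. A relation between the histone sum and the small RNAs was not tested. What part RNA handling or a change in the cells has in the lower levels of the members was not tested, and it cannot be told apart from the library set.

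How the members varied together is given as a description over libraries that share their sets and scaling. RN7SL1 and RN7SL2 had Pearson r = 0.98 over all 30 libraries and 0.97 over the 27 extract libraries, on the log2 CPM scale. RN7SK followed them less closely, with r = 0.79 to RN7SL2 over 30 libraries and 0.61 over extract libraries. RMRP followed RN7SK with 0.80 and 0.55. Over extract libraries RMRP had at most 15 counts and 0 counts in 9 libraries, and Sagunja-tang high was highest in both RNAs. How far the 0.55 rests on that library was not tested. MALAT1 had r = 0.65 to RN7SL2 over 30 libraries but 0.30 without vehicle, so that most of that likeness came with the vehicle libraries. NEAT1 and KCNQ1OT1 had 0.74 and 0.72, and NEAT1 and MALAT1 had −0.07 over 30 libraries and −0.59 over extract libraries.

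**Figure D4:**
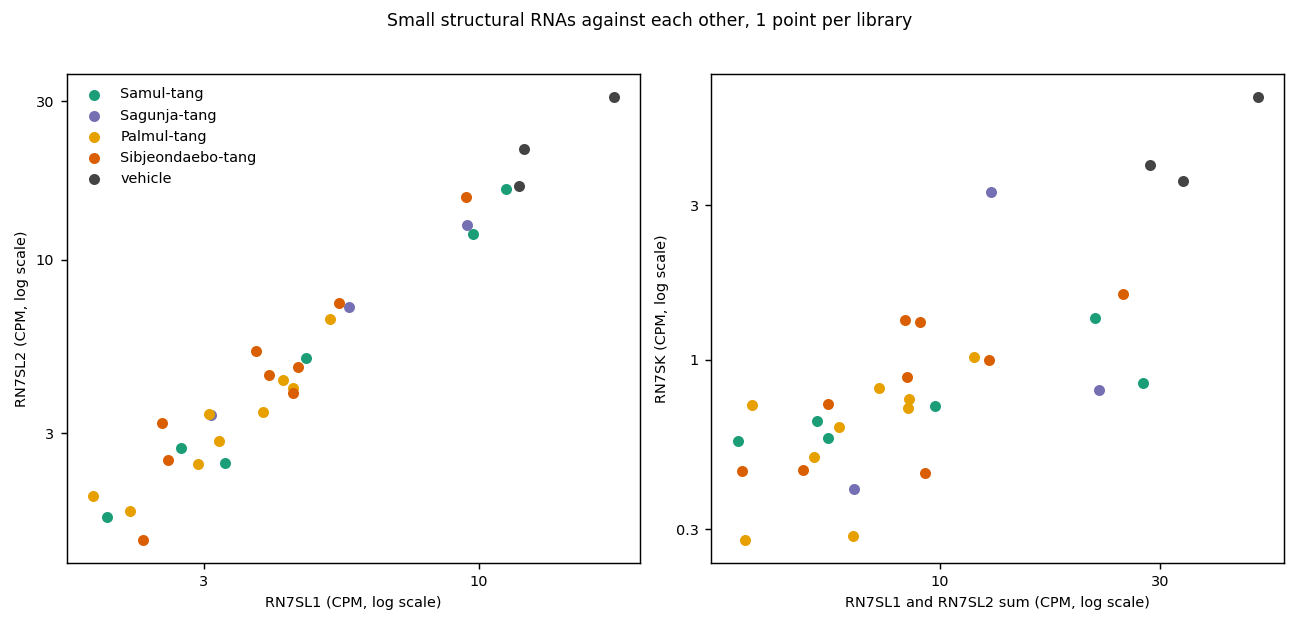
RN7SL2 against RN7SL1, and RN7SK against the sum of both (CPM, log axes), with 1 point for each of the 30 libraries coloured by formula. The vehicle libraries lie at the upper right, and Sagunja-tang high lies above the other extract libraries in RN7SK (3.30 CPM) at a sum of 12.9 CPM.

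The genes whose levels were most like each member, by the highest r over 30 libraries, are named without a claim of shared function. For NEAT1 they were CHRD, which encodes a BMP antagonist (r = 0.97, and 0.98 over extract libraries), CCNL2, a cyclin tied to splicing (0.97 and 0.96), and CDK5RAP3 (0.96 and 0.97). As a description of genes picked for this likeness, CCNL2 was at 56.0 ± 7.5 CPM in Sibjeondaebo-tang high and 105 ± 2.3 CPM in Sibjeondaebo-tang low, and CHRD at 18.2 ± 2.0 and 39.6 ± 1.6 CPM in the same groups (SD, n = 3 each). For KCNQ1OT1 they were ZNF587, TPCN1 and POLE (r = 0.88, 0.86 and 0.85; 0.84, 0.83 and 0.80 over extract libraries), and for TUG1 RAB5B, A1CF and FERMT2 (0.85, 0.85 and 0.84; 0.86, 0.87 and 0.86). For MALAT1 they were CBX5, STARD7 and ASB13 (0.91, 0.87 and 0.86), with only 0.69, 0.58 and 0.53 over extract libraries. CBX5 encodes the heterochromatin protein HP1 alpha. It was at 36.5 to 59.4 CPM in extract libraries and 71.2 to 76.6 CPM in vehicle. Because CBX5 was picked for its likeness over libraries that include vehicle, nothing is read from this gap.

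For the small RNAs the genes with the highest r were in part one another. RN7SL1 and RN7SL2 were followed by RN7SL3, a further near-identical copy (r = 0.92 and 0.94), which was at 0.0701 to 1.54 CPM in extract libraries and 0.844 to 1.94 CPM in vehicle, and by RN7SK. For RN7SK they included LRRC8E (r = 0.83, and 0.57 over extract libraries) and RMRP. For RMRP, after RN7SK, they were LRRC8E and PYCR3 (0.80 and 0.79; 0.49 and 0.49 over extract libraries), and for RPPH1 SLC27A5, KLHDC8B and ATXN10 (0.79, 0.73 and 0.72; 0.69, 0.57 and 0.46). LRRC8E was at 7.87 to 9.65 CPM in extract libraries and 12.3 to 12.6 CPM in vehicle. It was picked for its likeness over libraries that include vehicle, so nothing is read from this gap.

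Proteins that work with the small RNAs were read in the same comparisons, of which Sibjeondaebo-tang high against low called 19.8% of all genes, so 1 call in a list of 6 or 7 is near that share. Of 6 signal recognition particle proteins, 1 passed in any of the 6 dose and formula comparisons: SRP72 was higher in Sibjeondaebo-tang high than low by 0.20 ± 0.05 (adjusted p = 0.00218 in edgeR), and SRP14, SRP54 and SRP19 reached adjusted p values of 0.125, 0.182 and 0.185 at best. Of 7 proteins of the 7SK particle and P-TEFb, MEPCE, which caps 7SK RNA, was higher in the same comparison by 0.21 ± 0.05 (adjusted p = 0.00497 in edgeR), and CCNT1, CDK9 and LARP7 reached 0.0707, 0.105 and 0.256. Of 10 proteins of RNase P and RNase MRP, 0 passed in any comparison by edgeR or DESeq2. In Sibjeondaebo-tang high against low 3 had an unadjusted p under 0.05 in edgeR, as did 5086 of the 16083 genes tested. POP4, RPP40, POP7 and POP5 were nearest, at 0.099, 0.107, 0.124 and 0.161.

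Of 27 genes of RNA polymerase III and its factors, 5 were higher in Sibjeondaebo-tang high than low, where 19.8% of all genes were called in either direction, a share near that of the list, with a list median of 0.07 beside 0.02 over all genes. GTF3A, which binds 5S RNA genes, was at 95.7 ± 5.5 CPM in Sibjeondaebo-tang high and 80.6 ± 3.1 CPM in Sibjeondaebo-tang low (adjusted p = 0.00171 in edgeR), and MAF1, a repressor of the polymerase, at 76.2 ± 1.6 and 66.6 ± 0.8 CPM in the same groups (adjusted p = 0.00305; SD, n = 3 each). In Palmul-tang high against low, where 6.78% of all genes were called, 2 were higher, POLR3G by 0.37 ± 0.07 (adjusted p = 0.000834 in edgeR) and POLR3E by 0.19 ± 0.04 (adjusted p = 0.00298). In Sibjeondaebo-tang high against Palmul-tang high 3 were lower, where 6.47% of all genes were called. POLR3E was among them, at −0.16 ± 0.04 (adjusted p = 0.0123 in edgeR). The other 3 comparisons called 0 of the 27 with edgeR and with DESeq2. In Samul-tang high against low 7 had an unadjusted p under 0.05 in edgeR, as did 1600 of the 16083 genes tested.

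Of 12 paraspeckle proteins, 1 passed in Sibjeondaebo-tang high against low, where 19.8% of all genes did: SMARCA4 was higher by 0.22 ± 0.06 (adjusted p = 0.00932 in edgeR), while DAZAP1, HNRNPK and PSPC1 did not pass, at 0.0515, 0.068 and 0.0787 at best. In that comparison 8 of the 12 had an unadjusted p under 0.05 in edgeR, as did 5086 of the 16083 genes tested. Of 8 genes of MALAT1 processing and nuclear speckles, ELAC2, which cuts transfer RNA precursors at their 3′ end, was higher in Palmul-tang high than low by 0.18 ± 0.05 (adjusted p = 0.0187 in edgeR), and SRRM2, a scaffold of speckles, was lower in Sibjeondaebo-tang high than low by 0.16 ± 0.06 (a log2 fold change of −0.16; adjusted p = 0.0457). SRSF2 and METTL16 reached 0.151 and 0.166.

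Of 9 imprinted neighbours of KCNQ1OT1 found in the table, 4 passed the count filter, and 2 of these were called. Among all genes, high against low called 19.8% in Sibjeondaebo-tang, 6.78% in Palmul-tang and 1.42% in Samul-tang. SLC22A18, which encodes a membrane transporter, was at 17.98 ± 1.5 CPM in Sibjeondaebo-tang high and 25.8 ± 1.4 CPM in Sibjeondaebo-tang low (log2 −0.53 ± 0.06, adjusted p = 3.41e-07 in edgeR), and at 35.2 ± 0.7 CPM in Palmul-tang high and 28.6 ± 1.2 CPM in Palmul-tang low (log2 0.31 ± 0.06, adjusted p = 0.00119; SD, n = 3 each). It was also higher in Samul-tang high than low, by 0.43 ± 0.07 (adjusted p = 0.000869 in edgeR). For high against low, KCNQ1OT1 itself passed only in Sibjeondaebo-tang, and a link between KCNQ1OT1 and SLC22A18 was not tested. PHLDA2, a growth-restraining placental gene, was higher at the high dose of Palmul-tang (0.72 ± 0.11, adjusted p = 3.02e-05 in edgeR) and Sibjeondaebo-tang (0.45 ± 0.11, adjusted p = 0.00317), and TSSC4 and NAP1L4 reached 0.161 and 0.347.

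Of 17 other long noncoding RNAs listed, 14 were tested, and in Sibjeondaebo-tang high against low 5 were lower and 1 higher, where 19.8% of all genes were called, with a list median of −0.13 beside 0.02 over all genes. SNHG12 and SNHG1, which host small nucleolar RNAs, were lower by 0.49 ± 0.08 and 0.46 ± 0.07 (log2 −0.49 and −0.46; adjusted p = 4.24e-05 and 3.11e-05 in edgeR), and MIR22HG by 0.47 ± 0.07 (log2 −0.47; adjusted p = 1.14e-05). CYTOR was higher, by 0.55 ± 0.11 (adjusted p = 0.0005 in edgeR). It was higher in Palmul-tang high than low too, by 0.48 ± 0.11 (adjusted p = 0.00513 in edgeR), where 6.78% of all genes were called. In Samul-tang the value of 0.41 ± 0.13 did not pass (adjusted p = 0.15 in edgeR). Between the high doses of Sibjeondaebo-tang and Palmul-tang, CYTOR differed by 0.03 ± 0.11 and was not called. SNHG12, SNHG1 and MIR22HG were lower in Sibjeondaebo-tang high than in Palmul-tang high too, at −0.61, −0.36 and −0.51 (adjusted p = 4.4e-06, 0.00164 and 1.22e-05 in edgeR). The largely cytoplasmic RNA NORAD was at 332 to 413 CPM in extract libraries and 376 to 386 CPM in vehicle.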

How the data were processed

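RNA sequencing was done on 30 HepG2 libraries with 100-base paired reads. The deposited values are expected counts per Ensembl gene, made by the authors on GRCh38 with RSEM 1.3.3 and STAR 2.7.3a, while FastQC 0.11.9 and Trim Galore 0.6.5 are also named, all per the submitters' processing notes; 8.56% of them are not whole numbers. No source used here names the annotation release or the strand setting. A wortmannin control named in the design text was not analysed here. The table holds 240 further columns, which were not read. Counts were rounded, genes with too few counts were dropped with edgeR's filterByExpr (minimum 10), TMM factors were computed over 30 libraries, and CPM were taken on those totals. Tests used edgeR 4.0.16 (R 4.3.3), with the quasi-likelihood F test over the 27 libraries of the 10 groups with replicates, 1 term per group, and Benjamini-Hochberg adjustment over 16083 genes at a threshold of 0.05. The count test was tested on simulated data with 200 changed genes. DESeq2 1.42.0 and other settings served as alternatives. Sagunja-tang, with 1 library per dose, was only described. Genes were matched by symbol, RN7SK through its RefSeq synonym and locus. The NEAT1 sequence came from the GENCODE 29 transcripts. The members and the gene lists, of which 148 of 160 symbols were found, were chosen with earlier results of these data known. In each list up to 4 genes with the smallest adjusted p are named, and for each member the 3 genes with the highest Pearson r, except that some items are not reported here. Total expected counts of 21570416 to 37707232 per library mean that members with few counts have wide errors. Limits from a count of 0 cover counting error only.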

Additional observations from a re-analysis of the deposited data

Results flagged for a closer look

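NEAT1 differed between the labelled doses to a different extent in 2 formulas of the same library set. The log2 difference between the high and the low dose was −1.01 ± 0.05 in Sibjeondaebo-tang and −0.13 ± 0.05 in Palmul-tang (SE, n = 3 libraries per group). The difference between these dose effects was −0.87 ± 0.07 on the log2 scale (edgeR interaction contrast, adjusted p = 3.03e-09), and all 3 Sibjeondaebo-tang high libraries lay below all 27 other libraries. It kept its sign and passed in all 19 alternatives run, with values from −0.94 to −0.81. The test was fitted with the groups' values already known. It called 2% of all genes, 314 lower and 8 higher. The design text says that more toxic extracts were given at lower doses, so a labelled dose may not be the same concentration in these formulas.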

How the results depend on the processing

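NEAT1 kept its direction and its call in all 13 alternatives of Sibjeondaebo-tang high against low (log2 −1.06 to −0.94), in all 13 of Sibjeondaebo-tang against Palmul-tang at the high dose (−0.93 to −0.82) and in all 19 of the difference between their dose effects. MALAT1, KCNQ1OT1 and TUG1 were called in all 13 alternatives of Sibjeondaebo-tang high against low. Over the single members, 1037 alternative values kept the call, 16 gained one, 10 lost one and 0 reversed a call; sign changes of values that were not called are counted with the first. Of the counts over gene lists, 721 stayed within 1.5 times and 39 moved.

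With no filter on low counts the members called were 2 in Palmul-tang high against low, 6 between the high doses of Sibjeondaebo-tang and Palmul-tang, 4 for the dose effect, 7 in Sibjeondaebo-tang high against medium and 1 in medium against low. The genes called in all were then 376 in Samul-tang high against low, 168 and 72 between Sibjeondaebo-tang and Palmul-tang at the medium and low doses, 562 for the dose effect and 174 in Sibjeondaebo-tang medium against low. The members gained were mostly RN7SL1, RN7SL2 and RN7SK: RN7SL2 in Palmul-tang high against low had a standard error of 0.131 on the log2 scale without the filter and 0.898 with it, and the cause was not tested. DESeq2 called 25 genes between Sibjeondaebo-tang and Palmul-tang at the medium dose, and 55 genes with 1 member, NEAT1, in Sibjeondaebo-tang medium against low; fitting the compared groups alone called 95 genes and the same 1 member there. The cause of these shifts was not tested.

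Fits with a replicate block called 26 genes between Sibjeondaebo-tang and Palmul-tang at the medium dose and changed no member's call, with NEAT1 at −1.01 in Sibjeondaebo-tang high against low (adjusted p = 2.24e-15 in edgeR). Deviations of libraries with the same number correlated at −0.07 to 0.08, so the numbers were not taken to pair the samples.

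Leaving out each replicate in turn gave 90 to 111 called genes in Samul-tang high against low, 702 to 834 in Palmul-tang high against low, 2167 to 2643 in Sibjeondaebo-tang high against low, 1066 to 1542 in high against medium and 3 to 12 in medium against low. Between Sibjeondaebo-tang and Palmul-tang it gave 528 to 933 genes and 1 to 3 members at the high dose, 2 to 30 genes at the medium dose and 182 to 327 genes for the dose effect; both 528 and 182 were without Sibjeondaebo-tang high replicate 3. In high against medium 3 to 4 members were called. Against vehicle, leaving out the 5 extract libraries moved RN7SL1 to −2.02, RN7SL2 to −2.68, their sum to −2.39 and RMRP to −3.83, and no other alternative moved a member by more than 1 SD. The 5 libraries were chosen for high values of small RNAs, so the direction of these shifts was fixed by the choice. The few counts of RMRP and RPPH1 limit what could be seen between extract groups.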
